A study of Mus musculus with 4 samples.

Results

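Ribosome biogenesis and nucleolar genes were followed in mouse bone marrow cells that carried a silent Mll-AF4 fusion. The cells were infected with a retrovirus for the Cre recombinase (Cre-GFP) or with a control retrovirus (MIG). The set held 40 genes, listed by symbol: the proteins of the small nucleolar ribonucleoprotein particles (snoRNPs), RNA polymerase I and its cofactors, abundant nucleolar proteins, assembly factors of each ribosomal subunit, and Srm and Odc1 of polyamine synthesis. Of these, 37 were measured among 12394 genes. Mrto4 was covered by multi-gene probe sets alone, and Dkc1 and Nob1 had no probe set named for them. Each gene was read from its brightest probe set, the group of short probes on an Affymetrix array that reports 1 transcript, and a further 32 probe sets of the members were examined beside these.

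All 4 arrays came from Mll-AF4stop knock-in mice, whose fusion construct is meant to stay off until Cre acts on it. The mice had received 5-FU (5-fluorouracil, which kills dividing blood cells), and after 5 days their marrow was exposed ex vivo to a Cre-GFP retrovirus (2 arrays) or to the MIG control retrovirus (2 arrays). GFP+ cells were sorted 2 days after infection and kept for 14 days in cytokines for lymphoid progenitors. The sample labels describe MIG as a GFP control, whereas the series text writes MIG-Cre, so whether the controls lacked Cre is not settled, and on the sample labels the fusion and Cre itself cannot be told apart. Strain, age and sex of the mice are not given, nor is it said if the 2 arrays of each group are separate animals or cultures, so a p-value here covers only array-to-array spread, possibly technical. Median intensities lay between 85.1 and 87.7 on every array. After the dimmest 40% of genes were set aside, 7436 of 12394 genes remained. So did 16 of 18 measured B lineage markers, 4 of 10 T lineage, 9 of 13 monocyte and 8 of 13 neutrophil markers. The share was highest for B lineage markers, but markers of the other lineages remained too, so this count does not give the purity of the cells.

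Ribosomes are built in the nucleolus. RNA polymerase I copies the ribosomal DNA into a long precursor, snoRNPs guide its methylation, pseudouridylation and early cleavage, and separate sets of assembly factors carry the large and small subunits toward the cytoplasm. Cells that grow and divide quickly, leukemia cells among them, transcribe these genes strongly, and Myc proteins are known activators of many of them.

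The members stood slightly higher in the Cre-GFP arrays, for most of them by an amount smaller than the gap between the arrays of at least 1 group. Of the 37 measured members, 29 had a positive log2 difference (Cre-GFP minus control), beside 50.1% of all genes tested. Their median difference was 0.15, a 1.11-fold change, against a median of 0.00 over all genes. In 13 members both Cre-GFP arrays lay above both control arrays, which is 35.1% of them beside 15.2% of all genes. The reverse order, both Cre-GFP arrays below both controls, was seen in 0 members and in 14.9% of all genes. With bulk RNA, more cells of a type and more RNA per cell cannot be told apart.

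No member passed the test. In limma, with Benjamini-Hochberg adjustment over all genes, 0 members and 0 of 12394 genes (0%) were called, and the adjusted p was 1 for every member. At an unadjusted p under 0.05 the count was again 0 of 37, beside 600 genes or 4.84% of all tested. Without moderation of the spread, an ordinary linear model called 2 genes, of which 1 was a member, Nsun5. Member differences ran from −0.17 for Polr1e to 0.48 for Rrp1b, while the 95% confidence interval of a member reached, at the median, 0.49 to either side. In 29 of the 37 members the gap between the arrays of at least 1 group was larger than the difference between the groups. The same count was not made over all genes. At the median, the absolute gap within Cre-GFP was 0.22 for members and 0.16 for all genes, and within control 0.30 and 0.15. The median absolute difference between groups was 0.16 for members and 0.10 for all genes, so gaps above the difference are not particular to the members.

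**Figure D1:**
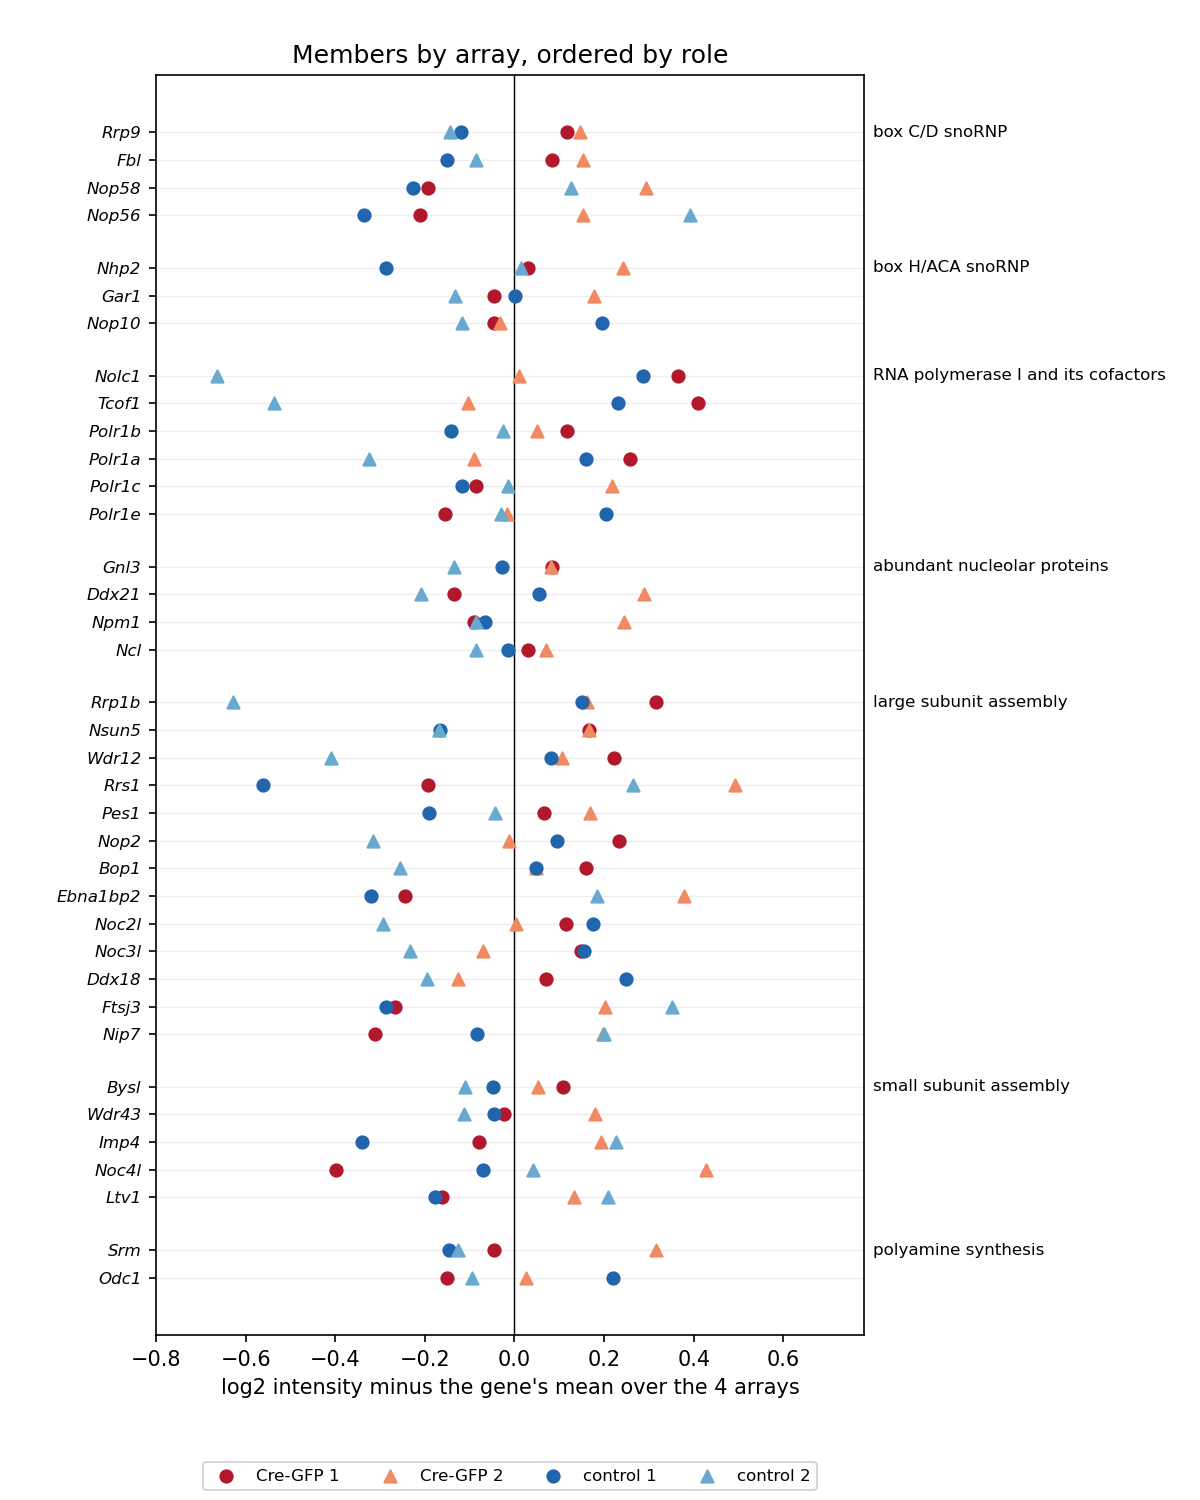
Each row is a measured member, grouped by role, and each point is 1 array's log2 intensity minus the gene's mean over the 4 arrays (red and orange, Cre-GFP 1 and 2; dark and light blue, control 1 and 2). Red and orange points lie to the right of both blue points in 13 of 37 rows, and in many rows circles (replicate 1) and triangles (replicate 2) separate more than the colours do.

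**Figure D2:**
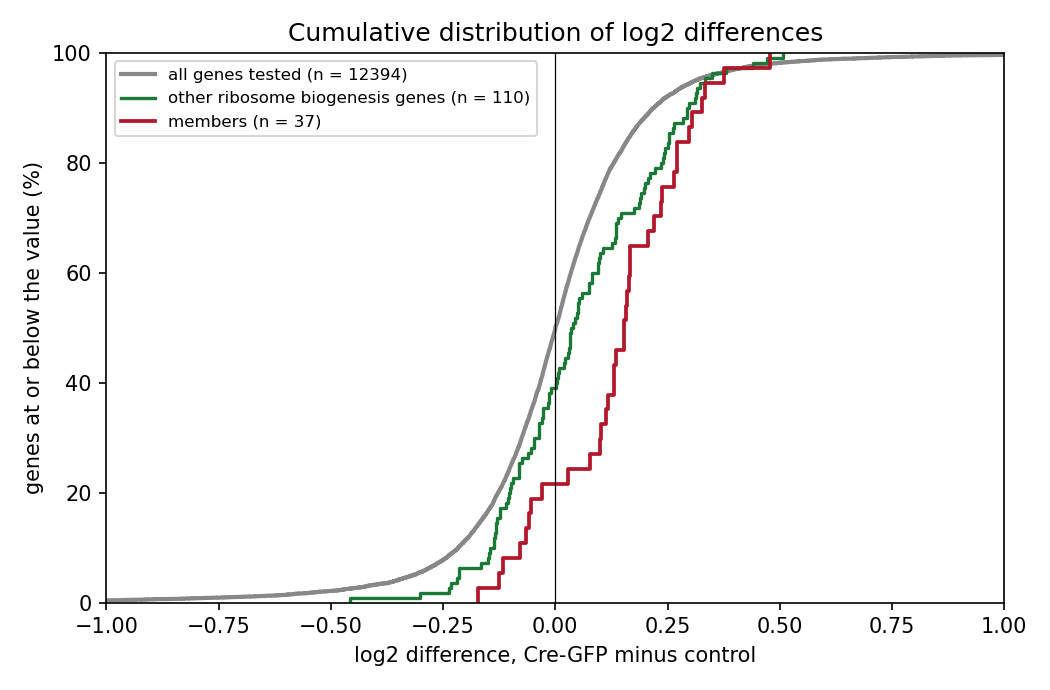
Cumulative share of genes (vertical axis, %) by log2 difference, Cre-GFP minus control (horizontal axis), for the 37 members, 110 other ribosome biogenesis genes and all 12394 genes tested. The member curve lies to the right of that of all genes, with medians of 0.15 and 0.00, and the other biogenesis genes lie between them with a median of 0.04.

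Box C/D snoRNPs place methyl groups on ribosomal RNA and include the U3 particle needed for early cleavage. Fbl, their methyltransferase, had log2 intensities of 12.01 and 12.08 on Cre-GFP 1 and 2, against 11.78 and 11.84 on control 1 and 2. The Cre-GFP arrays were the higher pair, without overlap, and the difference was 0.24 ± 0.13 (SE, n = 2 per group), or 1.18-fold. Rrp9, a protein particular to U3, read 8.67 and 8.69 against 8.43 and 8.40, a difference of 0.26 ± 0.16. Its groups did not overlap either, and both pairs were close within themselves. Nop56 and Nop58 form the paired scaffold of the same particles. Nop56 read 10.92 and 11.29 against 10.80 and 11.53, a difference of −0.06 ± 0.28. Nop58 read 8.59 and 9.08 against 8.56 and 8.91, a difference of 0.10 ± 0.24. For both scaffold genes the second array of each group was the higher and the groups overlapped. Fbl was also higher on the second array of each group, but by less than the groups differed. The second Fbl probe set differed by 0.29 ± 0.20 with overlapping groups, and the second Nop56 probe set by 0.04 ± 0.15.

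Box H/ACA snoRNPs convert uridines of ribosomal RNA to pseudouridine, and 3 of their 4 core proteins were measured, without the pseudouridine synthase Dkc1 itself. Nhp2, which binds the guide RNA, read 11.17 and 11.38 on the Cre-GFP arrays, against 10.85 and 11.16 on the controls, a difference of 0.27 ± 0.18. The groups were separated only narrowly, Cre-GFP 1 standing just above control 2, and the second Nhp2 probe set, with a difference of 0.33 ± 0.35, overlapped. Gar1, which joins the finished particle, read 11.43 and 11.65 against 11.47 and 11.34, a difference of 0.13 ± 0.16. Nop10, a small protein that holds the synthase, read 13.72 and 13.74 against 13.97 and 13.65, a difference of −0.08 ± 0.13. Gar1 stood apart only on Cre-GFP 2 and Nop10 only on control 1, so neither separated the groups.

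Of the 6 genes of RNA polymerase I and its cofactors, 5 had positive differences. In 1, Polr1b, Cre-GFP was higher without overlap (16.7%, beside 15.2% of all genes). Polr1a, the largest catalytic subunit, read 8.61 and 8.26 on the Cre-GFP arrays, against 8.51 and 8.03 on the controls, a difference of 0.17 ± 0.23. Its other probe sets differed by 0.32 ± 0.17 and 0.14 ± 0.15, both without overlap. Polr1b, the other large catalytic subunit, read 6.55 and 6.48 against 6.29 and 6.41, a difference of 0.17 ± 0.12. Polr1c, shared with RNA polymerase III, read 10.54 and 10.84 against 10.51 and 10.61, a difference of 0.13 ± 0.18. These subunits thus did not share a pattern over the arrays: Polr1a was higher on replicate 1 of each group, Polr1c on replicate 2. Polr1e, a subunit particular to RNA polymerase I, read 7.61 and 7.75 against 7.97 and 7.73, a difference of −0.17 ± 0.17. It was the lowest of the member differences, and the only one that stayed negative with each array left out in turn. The second Polr1e probe set differed by −0.11 ± 0.12, with Cre-GFP lower without overlap. Tcof1 (treacle), an organiser of nucleolar transcription, read 8.87 and 8.35 against 8.69 and 7.92, a difference of 0.31 ± 0.31. Nolc1, a phosphoprotein chaperone of snoRNPs and a partner of RNA polymerase I, read 10.75 and 10.39 against 10.67 and 9.72, a difference of 0.38 ± 0.33. In Tcof1 and Nolc1 control 2 stood well below the other 3 arrays, and without it their differences were −0.08 and −0.10.

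Among the abundant nucleolar proteins all 4 differences were positive, although without Cre-GFP 2 only 2 were, with a median of 0.03. Npm1 (nucleophosmin), a histone chaperone that moves ribosomal particles out of the nucleus and is mutated in human myeloid leukemia, read 12.89 and 13.22 on the Cre-GFP arrays, against 12.91 and 12.89 on the controls, a difference of 0.15 ± 0.15. Only Cre-GFP 2 stood above the rest. Ncl (nucleolin), which binds the nascent ribosomal transcript, read 10.62 and 10.66 against 10.57 and 10.50, a difference of 0.10 ± 0.16 with groups that did not overlap. Gnl3 (nucleostemin), a GTP-binding protein of stem and cancer cells, read 11.68 and 11.68 against 11.57 and 11.46, a difference of 0.16 ± 0.14, again without overlap. Ddx21, an RNA helicase of rRNA transcription and processing, read 10.09 and 10.51 against 10.28 and 10.01, a difference of 0.15 ± 0.21. Its arrays were interleaved, with Cre-GFP 2 highest and control 2 lowest. The second Ddx21 probe set differed by −0.03 ± 0.19, with overlapping groups.

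Other probe sets of Npm1 and Ncl gave larger values than the brightest ones. A second Npm1 probe set read 11.26 and 11.73 on the Cre-GFP arrays, against 10.67 and 11.05 on the controls, a difference of 0.63 ± 0.23. A dimmer Ncl probe set read 9.08 and 9.26 against 8.51 and 8.52, a difference of 0.65 ± 0.17, while the remaining Ncl probe sets differed by 0.14 ± 0.33 and 0.03 ± 0.18. These probe sets separated the groups, but the brightest probe set of Npm1 did not, so the probe sets of these genes disagreed on the size. Over the 69 member probe sets, 53 (76.8%) had a positive difference, beside 50.6% of all 20393 single-gene probe sets. The groups were separated with Cre-GFP higher on 24 (34.8%), beside 15.4% of all, and with Cre-GFP lower on 3 (4.35%), beside 14.6%. Of the 23 members with several probe sets, 14 were positive on all of them, 3 negative on all and 6 mixed. An unadjusted p under 0.05 was reached in limma by 3 of the 69 (4.35%), those of Npm1 and Ncl just given and the second one of Wdr12, beside 4.79% of all single-gene probe sets, so this share was near the background.

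**Figure D3:**
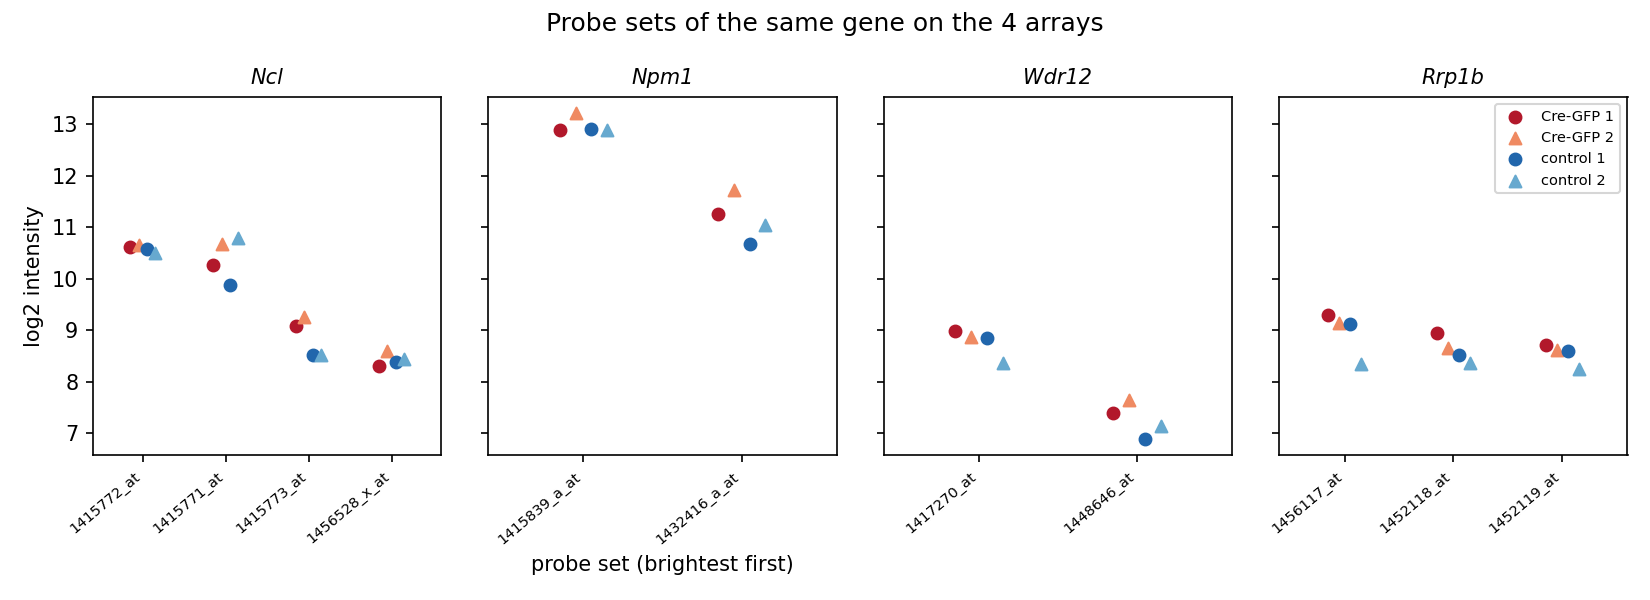
Log2 intensity (vertical axis) of every single-gene probe set of Ncl, Npm1, Wdr12 and Rrp1b on each array, brightest probe set first. The Cre-GFP and control points are far apart on a dimmer Ncl and the second Npm1 probe set (differences of 0.65 and 0.63) and close together on the brightest ones (0.10 and 0.15).

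The large subunit factors formed the biggest group, with 13 of 14 measured, 10 positive and 4 without overlap, all with Cre-GFP higher (30.8%, beside 15.2% of all genes). Their median difference was 0.21, and 0.08 without control 2. Bop1, Pes1 and Wdr12 make up the PeBoW complex, which is needed to mature the RNA of the large subunit. Pes1 read 7.88 and 7.99 on the Cre-GFP arrays, against 7.63 and 7.77 on the controls, a difference of 0.24 ± 0.16. The second Pes1 probe set differed by 0.08 ± 0.13. Wdr12 read 8.99 and 8.88 against 8.85 and 8.36, a difference of 0.33 ± 0.22, and its second probe set differed by 0.51 ± 0.17. Bop1 read 9.76 and 9.65 against 9.65 and 9.35, a difference of 0.21 ± 0.19. All 3 PeBoW genes thus pointed the same way, with Pes1 and Wdr12 separating the groups and Bop1 missing by the closeness of Cre-GFP 2 to control 1. Wdr12 separated only narrowly, with 8.88 on Cre-GFP 2 and 8.85 on control 1. Without control 2 the differences of Wdr12 and Bop1 were 0.08 and 0.06, and without control 1 they were 0.57 and 0.36. Pes1 differed by 0.31 without control 2 and by 0.16 without control 1. Rrp1b, a nucleolar scaffold, read 9.29 and 9.14 against 9.13 and 8.35, a difference of 0.48 ± 0.28, or 1.39-fold. This was the largest member difference, and it rested on control 2: without that array it was 0.09, and without control 1 it was 0.87. The other Rrp1b probe sets differed by 0.35 ± 0.18 and 0.24 ± 0.19, each without overlap.

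Nsun5, a methyltransferase of large subunit RNA, read 7.63 and 7.63 on the Cre-GFP arrays, against 7.30 and 7.30 on the controls, a difference of 0.33 ± 0.14, or 1.26-fold. The Cre-GFP values were identical on both arrays and control 2 minus control 1 was −0.00064. Nsun5 was the member called by the ordinary linear model, which takes the spread from the gene alone (adjusted p = 0.011). With the spread moderated across genes by limma, its unadjusted p was 0.053, the smallest of any member. Nop2, another rRNA methyltransferase, read 9.42 and 9.17 against 9.28 and 8.87, a difference of 0.22 ± 0.21 with overlapping groups. The remaining factors overlapped as well: Rrs1, which helps bring the 5S particle into the large subunit, differed by 0.30 ± 0.34, and its partner in early assembly Ebna1bp2 by 0.14 ± 0.28. A dimmer Ebna1bp2 probe set differed by −0.03 ± 0.15, with Cre-GFP lower without overlap. Noc2l and Noc3l, which escort large subunit precursors, differed by 0.12 ± 0.21 and 0.08 ± 0.20. Nip7, the RNA helicase Ddx18 and the methyltransferase Ftsj3 had differences of −0.12 ± 0.23, −0.05 ± 0.21 and −0.06 ± 0.25. Dimmer Ddx18 probe sets differed by 0.14 ± 0.15 and −0.15 ± 0.11, each without overlap. Ftsj3 was the 1 member among the dimmest 40% of genes.

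Small subunit factors had 5 of 6 genes measured, 4 of them positive, with a median of 0.11. Leaving out Cre-GFP 2 gave a median of −0.02 and leaving out control 1 gave −0.03, with 2 of 5 positive each time, so its direction depended on single arrays. Wdr43, part of the complex on the nascent small subunit precursor, read 10.11 and 10.31 on the Cre-GFP arrays, against 10.09 and 10.02 on the controls, a difference of 0.16 ± 0.17. Bysl, which acts late in small subunit maturation, read 8.95 and 8.90 against 8.80 and 8.73, a difference of 0.16 ± 0.16. On these probe sets neither gene's groups overlapped, although for Wdr43 Cre-GFP 1 and control 1 nearly touched. The second probe sets of Wdr43 and Bysl differed by 0.16 ± 0.19 and 0.14 ± 0.17, both with overlapping groups. Imp4, a U3 partner, differed by 0.11 ± 0.24 (−0.21 on its second probe set), Noc4l by 0.03 ± 0.29 and Ltv1, an export factor of the small subunit, by −0.03 ± 0.20, all with overlap.

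Promoters are shown because most members pointed one way and Myc proteins are known to bind the E-box CACGTG. RefSeq windows (GRCm38.p6, 250 bases before to 50 after a transcription start) were found for 30 of the 37 measured members. CACGTG, which reads the same on both strands, occurred in the windows of 5 of them (16.7%), beside 10.8% of the 9888 array genes with a window. The ETS-type core CCGGAA, searched on both strands, was present in 16 of the 30 (53.3%), beside 26.1% of array genes, and GGGCGG, the GC box, in 25 (83.3%), beside 61%. The other ribosome biogenesis genes held CACGTG in 24.4% and CCGGAA in 54.4% of 90 genes. Median differences were 0.16 for the 5 members with CACGTG and 0.13 for the 25 without it. They were 0.12 with and 0.16 without CCGGAA. Both splits leave out the 7 members with no window, which were all positive with a median of 0.27. A link between motif matches and the difference was not tested. Such matches describe letters in a window and show no binding. The 3 members with CACGTG that had the largest differences are printed from 250 bases before to 30 bases after the start, 5′ to 3′ on the plus strand, with CACGTG and CCGGAA (or its complement TTCCGG) in capitals. Pes1 lies at chr11:3963725-3964004, Nop2 at chr6:125131633-125131912 and Wdr43 at chr17:71615965-71616244, all in GRCm38.p6. In Nop2 the E-box begins 60 bases before the start and is followed by both orientations of the ETS-type core, whereas in Pes1 and Wdr43 it lies just past the start.
Pes1: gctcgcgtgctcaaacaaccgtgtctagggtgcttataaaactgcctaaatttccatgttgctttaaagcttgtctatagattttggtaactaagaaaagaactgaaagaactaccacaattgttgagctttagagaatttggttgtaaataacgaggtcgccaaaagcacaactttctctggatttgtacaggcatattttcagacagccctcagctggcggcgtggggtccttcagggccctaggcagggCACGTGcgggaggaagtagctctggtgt
Nop2: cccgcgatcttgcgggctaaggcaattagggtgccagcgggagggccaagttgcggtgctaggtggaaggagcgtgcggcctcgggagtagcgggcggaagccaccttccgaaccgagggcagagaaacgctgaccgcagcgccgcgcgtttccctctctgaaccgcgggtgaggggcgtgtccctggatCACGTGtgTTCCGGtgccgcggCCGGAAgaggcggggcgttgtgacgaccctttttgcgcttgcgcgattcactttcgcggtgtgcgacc
Wdr43: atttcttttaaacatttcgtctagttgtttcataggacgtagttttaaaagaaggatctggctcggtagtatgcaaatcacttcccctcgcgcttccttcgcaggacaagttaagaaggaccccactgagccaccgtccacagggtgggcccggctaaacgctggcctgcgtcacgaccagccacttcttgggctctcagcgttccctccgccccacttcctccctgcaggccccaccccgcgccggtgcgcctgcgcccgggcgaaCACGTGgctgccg

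Srm and Odc1 make the polyamines spermidine and putrescine and are textbook Myc targets. Srm read 11.55 and 11.91 on the Cre-GFP arrays, against 11.45 and 11.47 on the controls, a difference of 0.27 ± 0.17. Its groups did not overlap, and Cre-GFP 2 stood furthest out. Odc1 read 10.60 and 10.78 against 10.97 and 10.66, a difference of −0.13 ± 0.18 with control 1 highest, and its other probe sets differed by −0.03 ± 0.16 and 0.05 ± 0.17.

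The pattern over members depended on single arrays. Without Cre-GFP 2, 22 of 37 members were positive, or 59.5%, beside 55.5% of all genes, and the median difference was 0.08 against 0.02 over all genes. Without Cre-GFP 1 the count was 31, beside 44.7% of all genes, with a median of 0.20. Without control 1 it was 27, beside 52.5%, and without control 2 it was 28, beside 48%, with medians of 0.17 and 0.11. Cre-GFP 2 was the highest array for 15 members and the lowest for 0, beside 2358 and 3735 of all 12394 genes. Control 2 was the lowest for 19 members (3418 of all genes) and control 1 for 13 (2711 of all genes). Cre-GFP 1 was the highest for 11 members (4004 of all genes). A positive sign was kept in all 4 of these reduced sets by 16 members: Fbl, Rrp9, Nhp2, Gar1, Polr1b, Ncl, Gnl3, Bop1, Pes1, Wdr12, Rrp1b, Nop2, Nsun5, Wdr43, Bysl and Srm. For the 13 members whose groups did not overlap this had to be so, and it adds nothing to that count. Only Gar1, Bop1 and Nop2 kept the sign with overlapping groups. The same count was not made over all genes. The roles did not depend on the same arrays. The box C/D and H/ACA medians were 0.03 and 0.02 without Cre-GFP 2, whereas the RNA polymerase I median was 0.27 without it and −0.08 without control 2.

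**Figure D4:**
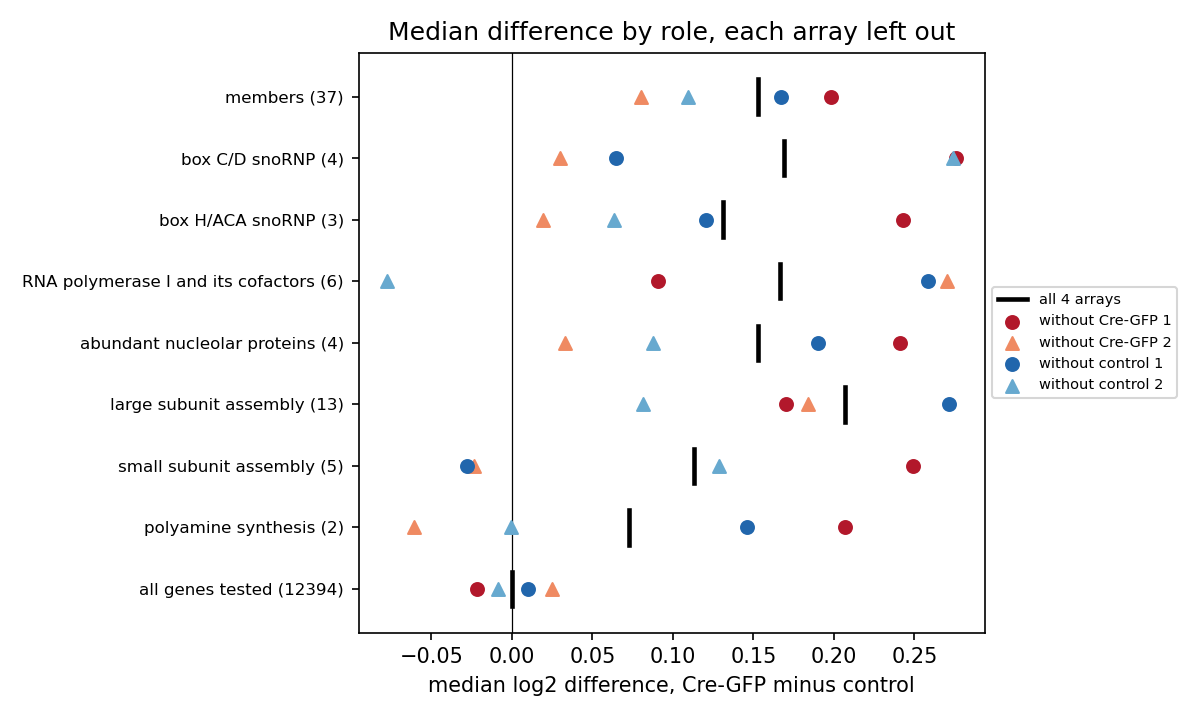
Median log2 difference of each role, of all measured members and of all genes tested (number of genes in brackets), with all 4 arrays (black bar) and with each array left out (points, coloured and shaped by the array removed). The median over members stays between 0.08 and 0.20, that of RNA polymerase I and its cofactors spans −0.08 to 0.27, and that of all genes stays near 0.

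The members split into sets that differed between the replicates of each group. Between the first and second array, 14 members were higher on the second array in both groups and 12 were lower in both, 26 of 37 with the same sign (70.3%) beside 61.3% of all genes. The first set held Fbl, Nop56, Nop58, Nhp2, Polr1c, Pes1, Ebna1bp2, Rrs1, Nip7, Ftsj3, Imp4, Ltv1, Noc4l and Srm. The other held Polr1a, Tcof1, Nolc1, Gnl3, Bop1, Wdr12, Rrp1b, Nop2, Noc2l, Noc3l, Ddx18 and Bysl. Rrs1, for example, was higher by 0.69 on Cre-GFP 2 than on Cre-GFP 1 and by 0.82 on control 2 than on control 1, while the corresponding values of Tcof1 were −0.51 and −0.77. Over the 37 members, Pearson's r between the difference within Cre-GFP and that within control was 0.79, beside 0.35 over all 12394 genes. The other ribosome biogenesis genes had r = 0.58 with 73.6% of the same sign, and a list of cell cycle genes 0.63 with 60.9%. Cytosolic ribosomal protein genes had 0.24 with 43.9%, and the genes left without the dimmest 40% had 0.38 with 65.0%. The pattern was thus not particular to the members. Each r is a correlation across genes of the same 4 arrays, and genes are not independent replicates. The sets differed little in the comparison of the groups, with median differences of 0.12 and 0.19. Probe sets of a single gene did not always side together: 2 probe sets of Nolc1 were lower on replicate 2 of both groups, and its dimmest was higher by 0.59 and 0.50. Among the 23 members with several probe sets, 8 kept the same pair of signs on all of them. Array processing order and RNA quality were not given, and their part in this pattern was not tested.

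**Figure D5:**
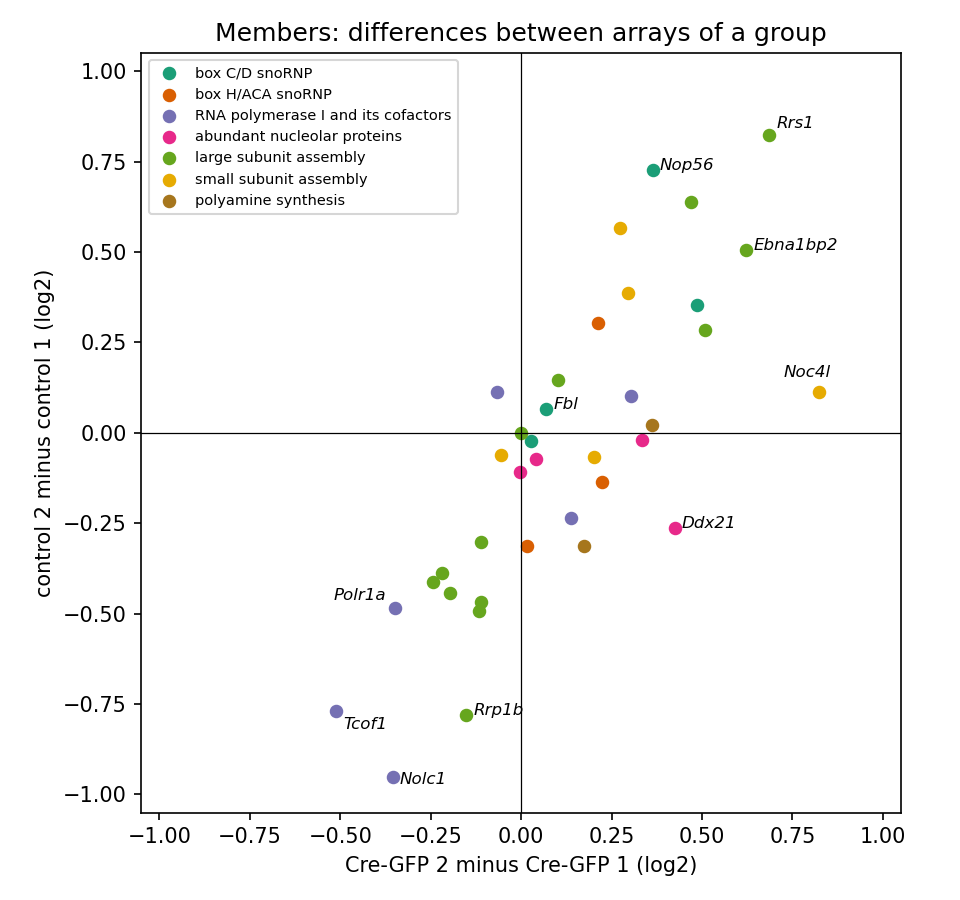
Each point is a member, coloured by role, placed by its log2 difference between the Cre-GFP arrays (2 minus 1, horizontal axis) and between the control arrays (2 minus 1, vertical axis). Points run from Tcof1 and Nolc1 at the lower left to Rrs1 at the upper right (r = 0.79).

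Other genes of the pathway had a smaller median difference than the members. A list of 140 ribosome biogenesis genes that contains no member had 110 measured, of which 67 were positive and 43 negative, with a median of 0.04. Both Cre-GFP arrays lay above both controls for 25 of them (22.7%) and below for 6 (5.45%), beside 15.2% and 14.9% of all genes. In limma 0 of them passed over all genes. The smallest p-values among the higher genes were those of Taf1b, a subunit of the RNA polymerase I selectivity factor (0.27 ± 0.09), the RNA exosome subunit Exosc1 (0.51 ± 0.19) and the large subunit factor Nsa2 (0.38 ± 0.17). Taf1b read about 4 on the log2 scale, and its difference was −0.0036 when dim values were raised to each array's 20th percentile. Exosc1 and Nsa2 differed by 0.06 and 0.13 on probe sets without a shared-probe suffix. Among the lower genes they were those of Taf1d, another selectivity factor subunit (−0.46 ± 0.23), Rpf2 (−0.23 ± 0.18) and the exosome subunit Exosc9 (−0.21 ± 0.17), with Taf1d at −0.14 on the probe set without such a suffix. For the end products of the pathway, 41 of 75 cytosolic ribosomal protein genes were measured, while 26 had multi-gene probe sets alone and 8 had no probe set named for them. Of the measured genes 30 were positive (73.2%, beside 50.1% of all genes), with a median difference of 0.05. In 12 (29.3%) Cre-GFP was higher without overlap and in 0 lower, beside 15.2% and 14.9% of all genes.

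The Myc genes, known activators of this pathway, had differences of opposite sign. Mycn read 11.53 and 10.02 on the Cre-GFP arrays, against 13.63 and 13.49 on the controls, a difference of −2.78 ± 0.45 and the lowest of all 12394 genes, with an adjusted p of 0.28 in limma. Its other probe sets differed by −0.75 ± 0.29 and 0.03 ± 0.19. Myc read 10.99 and 10.85 against 10.96 and 10.12, a difference of 0.38 ± 0.29 that was −0.04 without control 2, and their partner Max differed by 0.04 ± 0.10. Cell cycle genes did not go with the members: 7 of 23 were positive, with a median of −0.09. Of these 23, 0 had Cre-GFP higher without overlap, beside 15.2% of all genes, and 6 (26.1%) had Cre-GFP lower, beside 14.9%. Mki67, a marker of cycling cells, differed by −0.17 ± 0.19 and Pcna, the replication clamp, by 0.15 ± 0.21.

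Cell type markers differed between the same arrays. For B lineage markers 15 of 18 were negative, with summed intensities of 36153 to 37388 in Cre-GFP and 41276 to 51868 in control. Monocyte and macrophage markers were positive for 11 of 13, with sums of 4987 to 6919 against 2482 to 4536. Neutrophil and granule markers were positive for 8 of 13, with sums of 3929 to 4630 against 1711 to 5481. The summed intensity of the members themselves was 56398 to 62646 in Cre-GFP and 53845 to 57635 in control, so these sums overlapped between the groups. A sum is weighted toward bright genes. The brightest member, Nop10, was highest on control 1, with 13.97 on the log2 scale against 13.65 to 13.74 on the other arrays. The overlap of the sums therefore says little about the remaining members. The T lineage, erythroid and mast cell lists had 7 of 10, 3 of 7 and 5 of 8 positive, with medians of 0.01, −0.04 and 0.05. Their sums were 740 to 765 against 674 to 724, 1832 to 2124 against 2516 to 3286, and 769 to 1082 against 796 to 933. After the dimmest 40% of genes were set aside, 4 of 7 erythroid and 4 of 8 mast cell markers remained. The part of cell composition in the member differences was not tested.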

How the data were processed

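Total RNA (20 ng per sample, amplified with a NuGen Ovation kit, per the labels' protocols) from 4 samples was hybridised to Affymetrix mouse arrays. The authors deposited linear-scale intensities per probe set, which the submitters' processing notes credit to RMA, with the version not given in the sources used here. RMA normally brings arrays to nearly 1 distribution, which would hide a common shift, and differences of dim genes are compressed. The table held 22690 probe sets; the platform annotation named 1 gene for 20393, several for 691 and none for 1606, and only the first kind was used. Values were put on the log2 scale, each gene was read from its probe set with the highest mean, and the comparison used lmFit and eBayes of limma 3.58.1, run in R 4.3.3 (intensity trend, two-sided, threshold 0.05), a procedure tested on simulated data. Groups came from the sample titles. Scan dates were not used here, and precision is limited by there being 4 arrays. ± is limma's standard error. Members and lists were chosen with earlier results of these data known. Array values are given for snoRNP, RNA polymerase I, abundant nucleolar and polyamine genes and for the 6 assembly factors with the smallest p, to which Wdr43 and Bysl were added after their values were seen; of other pathway genes the 3 with the smallest p in each direction were named. Alternatives were each array left out, the replicate number as a block, other variance models, probe set rules, filters and normalizations.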

Additional observations from a re-analysis of the deposited data

How the results depend on the processing

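Over 13 alternative settings the member median was positive and no member passed limma's adjusted threshold. The ordinary linear model called 2 genes, 1 of them a member. The replicate block, the fit without an intensity trend and the ordinary linear model cannot alter the differences. For them a positive median was fixed beforehand and is no separate check. With dim values raised the member median was also unchanged, at 0.15. With single arrays left out, genes called ranged from 0 to 135, members at an unadjusted p under 0.05 from 0 to 3, members with Cre-GFP higher without overlap from 18 to 24 (with 3 arrays, where 27.6% to 38.7% of all genes are higher in this way), members higher in Cre-GFP from 22 to 31, the member median from 0.080 to 0.20 and the median of the other biogenesis genes from 0.014 to 0.10. Leaving out an array left 1 group with 1 array, whose spread could not be estimated. The counts of genes called and of members with p under 0.05 in those fits were therefore not interpreted. In limma with the replicate number as a block, 1 member and 952 of 12394 genes had an unadjusted p under 0.05. The member count was also 1 with no intensity trend (593 genes) and with arrays centred on their median (640 genes). It was 1 without the dimmest 40% of genes as well (383 of 7436 genes). With the mean of a gene's probe sets it was 2 (654 genes), and with the ordinary linear model 3 (557 genes). With that replicate block, 0 genes and 0 members were called, and the number pairs the samples only by a correlation of 0.35 over all genes between 2 pairs, so pairing was not assumed. Differences changed sign for several members with 1 array left out, with ranges of −0.42 to 0.31 for Nop56, −0.14 to 0.34 for Nop58, −0.23 to 0.078 for Nop10, −0.076 to 0.41 for Polr1a, −0.020 to 0.28 for Polr1c, −0.079 to 0.69 for Tcof1 and −0.099 to 0.85 for Nolc1. They were −0.015 to 0.32 for Npm1, −0.059 to 0.37 for Ddx21, −0.18 to 0.45 for Ebna1bp2, −0.11 to 0.71 for Rrs1, −0.37 to 0.14 for Nip7, −0.12 to 0.35 for Noc2l, −0.12 to 0.27 for Noc3l and −0.38 to 0.25 for Ftsj3. They were −0.28 to 0.17 for Ddx18, −0.17 to 0.40 for Imp4, −0.22 to 0.16 for Ltv1, −0.38 to 0.44 for Noc4l, −0.28 to 0.031 for Odc1, −0.040 to 0.80 for Myc, −0.0071 to 0.090 for Max and −0.085 to 0.39 for Pcna. Nop56 and Ddx18 turned to 0.041 and 0.14 on probe sets without a shared-probe suffix, Imp4 to −0.048 with the mean of its probe sets, and Taf1b to −0.0036 with dim values raised. The cause of these changes was not tested. With 2 arrays per group, the 95% interval of every member included 0 in the main limma comparison (intensity trend, brightest probe sets, no block). This does not extend to the limma settings above in which a member had an unadjusted p under 0.05.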
